A study of Oryzias latipes with 6 samples.

Results

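Among the transcripts measured in medaka (Oryzias latipes) hearts, 298 of 37495 were nearly absent in at least 1 of 6 genotypes while another genotype held them in nearly every library. They were chosen by measured values. A transcript was called lacking in a genotype when its estimated reads summed to 3 or less over the 6 libraries of that genotype. It was called present in a genotype when its mean level was at least 1 CPM (counts-per-million, the estimate relative to the library's total) and at least 5 of 6 libraries held an estimate above 0. A listed transcript is lacking in at least 1 genotype and present in at least 1 other, so the gap between these genotypes is the rule itself and is described here without a test.

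Hearts were taken at 5 days post-fertilization, and 6 libraries were sequenced for each of 6 genotypes by Lasy-Seq, a low-input method that reads mRNA from its tail end. WT hearts were AXER+/+, and KO hearts were AXER-/-, from a line that goes back to 1 F1 fish with a TALEN mutation in exon 1. WT + XBP1(S) and KO + XBP1(S) hearts carried in addition 1 XBP1(S/+) allele, made at the XBP1 locus itself by removing its regulated intron, so that the spliced, active factor is made without a signal. WT + ATF6(N) and KO + ATF6(N) hearts carried 1 ATF6(N/+) allele, cut by genome editing so that the active amino-terminal factor is no longer tied to the ER membrane. Both alleles sit at their own gene's locus, with no heart promoter, and the animals came from crosses of AXER+/- parents that carried one or the other allele. The labels name the HdrR strain and whole heart, and blood cells were part of the samples, which in fish keep their nuclei. Nothing states whether the 6 libraries came from separate hearts, pools or clutches, so every p-value given here is relative to differences between libraries that may be technical. In bulk tissue, fewer cells of a type and less RNA per cell cannot be told apart.

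AXER (SLC35B1) carries ATP into the endoplasmic reticulum (ER), where the chaperone BiP uses it to fold proteins. When unfolded proteins build up there, the unfolded protein response starts. One of its sensors, IRE1, splices the mRNA of XBP1, and another, ATF6, is cut so that its amino-terminal part reaches the nucleus. Both products are transcription factors that raise genes for folding and disposal of ER proteins. The comparison of hearts with and without AXER, and with and without either active factor, asks which transcripts follow AXER loss and which follow each factor.

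The tables name transcripts by Ensembl identifiers (ENSORLT) and do not pair these with genes, and 0 of the 298 matched the gene table used here. What the transcripts encode, whether any belongs to AXER, XBP1 or ATF6, and whether the heart or blood markers stand as the labels say was therefore not analysed here. Identifiers below stand for single transcripts, and 2 of them may belong to 1 gene.

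The genotype that lacked most of them was KO + XBP1(S), with 191 of the 298 (64.1%). WT hearts lacked 36, WT + XBP1(S) 24, WT + ATF6(N) 27, KO 25 and KO + ATF6(N) 28. Leaving out 1 library, which loosens the limit by construction, raised these counts, and the highest value for each genotype was over 1.5 times the one above. Without WT replicate 3, WT lacked 114, and without replicate 6, WT + XBP1(S) lacked 87 and WT + ATF6(N) 76. Without replicate 2, KO lacked 82 and KO + ATF6(N) 85, and without its replicate 1 KO + XBP1(S) lacked 385. For 172 transcripts KO + XBP1(S) was the only genotype lacking them, whereas the number lacking in 1 other genotype alone was 28 for WT, 17 for WT + XBP1(S), 18 for WT + ATF6(N), 15 for KO and 19 for KO + ATF6(N). In all, 269 transcripts were lacking in 1 genotype, 25 in 2 and 4 in 3, and 0 in 4 or more. On the other side, 224 were present by the rule in only 1 genotype, 42 in 2, 24 in 3, 3 in 4 and 5 in all 5 others. WT + ATF6(N) was the genotype that held most of them as present (116), and KO + XBP1(S) held the fewest (14). The same 2 genotypes were at the ends over all transcripts, with 17885 and 16419 present against 17317 to 17353 in the others. The rule also holds the 14 down, since a transcript lacking in a genotype cannot be present there.

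**Figure D1:**
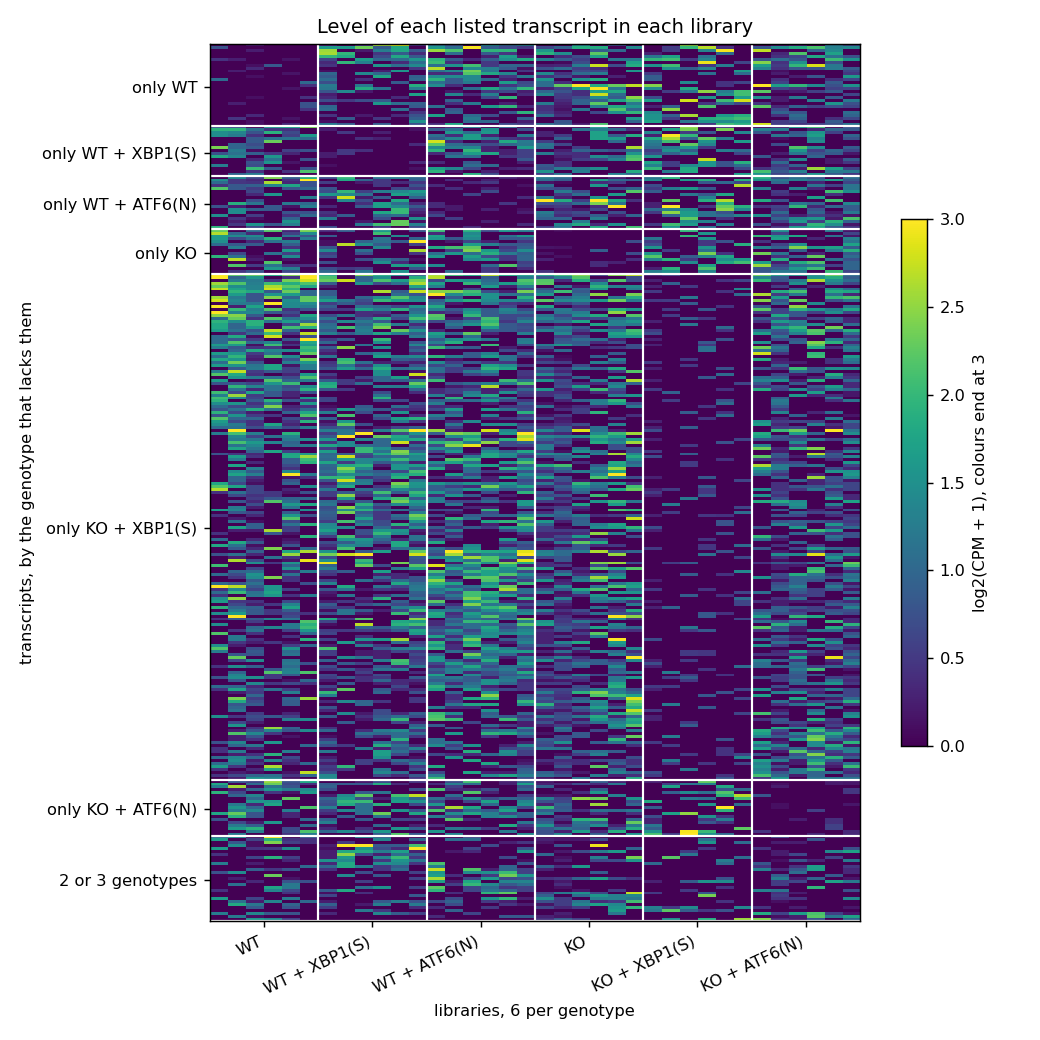
Level of the 298 listed transcripts (rows, grouped by the genotype that lacks them) in each of 36 libraries (columns, 6 per genotype), as log2(CPM + 1) with colours ending at 3. The largest block is the 172 transcripts lacking only in KO + XBP1(S). Within the genotypes that hold a transcript, dark cells next to bright ones show libraries at 0 beside libraries with reads.

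KO + XBP1(S) was also the genotype sequenced least. Its 6 libraries held 16534315 estimated reads together, against 32851260 to 46260182 in each of the other 5 genotypes, and its libraries ran from 1850805 to 4728592 reads. Relative to the pooled total of the 6 libraries, a sum of 3 reads is therefore 0.181 CPM there and 0.0649 to 0.0913 CPM in the others. The mean of the 6 library values, used for levels elsewhere, can differ from this. The limit of 3 reads thus admits transcripts in KO + XBP1(S) at a level that would keep them off the list elsewhere. An alternative, chosen after seeing the data, used 0.181 CPM of the pooled total as the limit in every genotype. With it 435 transcripts met the rule, and KO + XBP1(S) lacked 191 of them (43.9%) while each other genotype lacked 64 to 84. In KO + XBP1(S) this limit is again 3 reads, so its 191 could not change. When every library was thinned at random to the depth of the shallowest one, 895 to 985 transcripts met the rule over 10 draws. In the draw with the highest number, 985, which is the one plotted, 173 were among the 298. KO + XBP1(S) then lacked 277 (28.1%), KO + ATF6(N) 267, KO 254, WT + XBP1(S) 234, WT 202 and WT + ATF6(N) 145. Over the 10 draws the count for KO + XBP1(S) ran from 232 to 277, so that the 277 is its highest, and overlapped that of KO (225 to 267), KO + ATF6(N) (237 to 267) and WT + XBP1(S) (228 to 283) but not that of WT (at most 219) or WT + ATF6(N) (at most 167). All draws thin the same 36 libraries, so these ranges do not measure the spread between libraries. No difference between genotypes is read from them. Of the 298, 51 met the rule in all 10 draws.

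**Figure D2:**
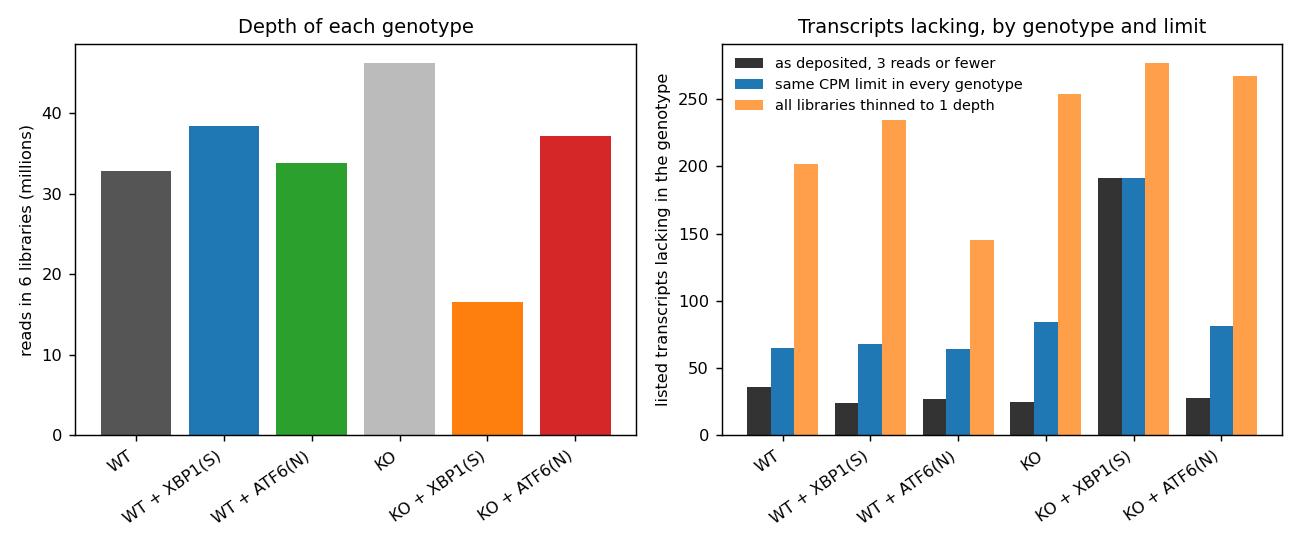
Left, estimated reads in the 6 libraries of each genotype, from 16.5 (KO + XBP1(S)) to 46.3 (KO) in the unit of the axis. Right, number of transcripts lacking in each genotype under the limit of 3 reads, under the same CPM limit in every genotype, and after thinning every library to 1 depth. The bar of KO + XBP1(S) stands at 191 under the first 2 limits, which are the same limit in that genotype, and after thinning at 277 next to 267 for KO + ATF6(N).

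Depth moved with the zeros library by library. The number of listed transcripts with an estimate of 0 ran from 59 in KO replicate 2, the deepest library (19619140 reads), to 236 in KO + XBP1(S) replicate 6, the shallowest (1850805 reads). Over the 36 libraries, which share the list and the rule, Pearson's r between log2 reads and this number was -0.89, given as a description. The deepest KO + XBP1(S) library, replicate 1, held 4728592 reads and had 192 listed transcripts at 0, while 5 libraries of other genotypes with 4774203 to 5148902 reads had at most 133. Over all transcripts that library was close to them, with 22329 detected transcripts against 22448 to 23945. The list was chosen largely on zeros in this genotype, which favours a higher number at 0 there. Nothing is therefore read from the 192.

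**Figure D3:**
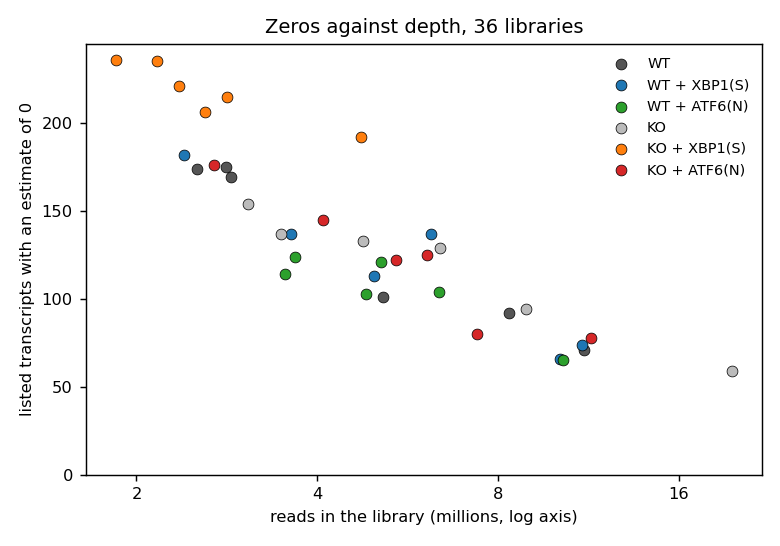
Listed transcripts with an estimate of 0 in each library against the reads of the library on a log axis, with 1 point per library and colours for the 6 genotypes. The points fall from 236 zeros at the lowest depth to 59 at the highest, and the KO + XBP1(S) points lie uppermost.

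By AXER status, 216 of the 298 were lacking in AXER-/- genotypes alone, 67 in AXER+/+ genotypes alone and 15 in some of both. Of the 216, 172 were those lacking in KO + XBP1(S) alone. In the other genotypes the counts lacking in 1 genotype alone were 17 to 28 for AXER+/+ and 15 and 19 for AXER-/-. No transcript was lacking in all 3 AXER-/- genotypes, and none in all 3 AXER+/+ genotypes. At least 2 genotypes of 1 AXER state lacked a transcript in 13 cases for AXER-/- and in 5 for AXER+/+. Most of the 13 involved KO + XBP1(S), the genotype sequenced least. Lacking in KO and KO + XBP1(S) alone were 6, in KO + XBP1(S) and KO + ATF6(N) alone 3, and in KO and KO + ATF6(N) alone 1. By XBP1(S), 192 were lacking only in genotypes with the allele, 86 only in genotypes without it and 20 in both, and the 192 include the 172 of KO + XBP1(S) alone. Only 3 were lacking in both XBP1(S) genotypes. By ATF6(N), 39 were lacking only with the allele, 246 only without it and 13 in both. The state without ATF6(N) holds 4 genotypes against 2, and KO + XBP1(S) alone gave 172 of the 246. In all, 3 were lacking in both ATF6(N) genotypes. No transcript was lacking in every genotype of 1 state of AXER, XBP1(S) or ATF6(N) and present in every genotype of the other.

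The listed transcripts were low even where they were present. Their highest mean level in a genotype that held them was 1.00 to 9.90 CPM with a median of 1.41, and it was below 2 CPM for 85.9% and at least 3 CPM for 14. Of 19857 transcripts present in at least 1 genotype by the same rule, the listed ones made up 8.95% of the 2860 whose highest present level lay between 1 and 2 CPM, 0.930% of the 4300 between 2 and 5 CPM, and 0.0158% of the 12697 at 5 CPM or more. Together the 298 took 0.00950% to 0.0330% of the reads of a library. In the lowest genotype 85 of them had 0 reads, 53 had 1, 57 had 2 and 103 had 3. Just outside this limit, 105 present transcripts had a lowest sum above 3 and up to 4. Just inside the other limit, 57 had a highest present level between 1 and 1.1 CPM, while 56 lacking transcripts with reads in at least 5 libraries of a genotype stopped between 0.9 and 1 CPM. A further 224 reached 1 CPM but in only 4 of 6 libraries.

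Reads of a listed transcript were unevenly spread over libraries, also in genotypes that held it, where the rule allows at most 1 library at 0. Of 10728 values (298 transcripts in 36 libraries), 45.3% were 0, a share that the rule itself raises, since a transcript with a sum of 3 reads or less in a genotype has most of its libraries at or near 0 there. Values above 0 had a median of 5 reads, and 12.1% of them were at 1 read or less. The 2604 other present transcripts whose highest level was below 2 CPM also had a median of 5. Among the 417 pairs of a transcript and a genotype that held it, 261 had a library at 0 beside a library with at least 10 reads, which involved 216 transcripts. For 111 transcripts the library at 0 was the deeper of the pair. No matching counts are given for the other low transcripts. The coefficient of variation over the 6 libraries had a median of 0.905 in these pairs, and 0.762 in the other present transcripts below 2 CPM. The rule used these same values and can admit a transcript that few libraries lift over its limit. Nothing is therefore read from the 0.905 against 0.762. Of the 298, 192 had a library at 0 in every genotype in which they were present, which the rule allows. No matching count is given for the other low transcripts here either. The protocol counts reads and names no molecular identifiers, so reads are not independent molecules, and limits set from counts cover counting error only. Of the 298, 9 (3.02%) had an estimate that was not a whole number in any library, against 9.98% of the other present transcripts below 2 CPM.

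Only 5 transcripts were lacking in 1 genotype and present in all 5 others, and the genotype was KO + XBP1(S) for each. The highest of them was ENSORLT00000012576.2. It had 22, 19, 42, 6, 36 and 26 reads in the WT libraries, 20, 61, 28, 2, 21 and 17 in KO, and 1, 1, 0, 0, 0 and 0 in KO + XBP1(S). It had 27, 0, 27, 13, 6 and 10 reads in WT + XBP1(S), 18, 20, 9, 26, 12 and 22 in WT + ATF6(N), and 11, 24, 9, 7, 24 and 8 in KO + ATF6(N). The highest KO + XBP1(S) library lay below every library of the other genotypes except WT + XBP1(S) replicate 2, which was at 0. Mean levels were 5.16 ± 2.63 CPM (SD, n = 6, as for the values that follow) in WT, 2.01 ± 1.51 in WT + XBP1(S), 3.43 ± 1.45 in WT + ATF6(N), 3.37 ± 1.79 in KO, 2.43 ± 1.27 in KO + ATF6(N) and 0.112 ± 0.191 in KO + XBP1(S). The 5 genotypes that held it overlapped one another in every pair. Between genotypes that held it, edgeR's quasi-likelihood fit put the log2 ratio of WT + XBP1(S) to WT at -1.01 with a standard error of 0.53 (adjusted p = 0.733). The ratio of KO to WT was -0.47 on that scale with a standard error of 0.52 (adjusted p = 1.00 in edgeR). The transcript was named for being present in all of these genotypes, a choice that favours small differences between them. Nothing is therefore read from these 2 ratios. This transcript met the rule in all 10 draws at equal depth.

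The next, ENSORLT00000015550.2, was at 1.54 to 3.40 CPM in the 5 genotypes that held it and at 0.184 ± 0.227 CPM in KO + XBP1(S), where its reads were 1, 0, 0, 0, 1 and 1. In WT its reads were 0, 7, 15, 1, 35 and 17, and libraries of WT, WT + ATF6(N) and KO overlapped those of KO + XBP1(S). ENSORLT00000004778.2 was at 1.73 to 2.39 CPM in the 5 genotypes and at 0.147 ± 0.229 CPM in KO + XBP1(S), with 2, 1, 0, 0, 0 and 0 reads there. Its KO libraries had 33, 32, 11, 7, 19 and 4 reads, all above KO + XBP1(S) as CPM, whereas WT replicate 4 and KO + ATF6(N) replicate 4 were at 0. The 2 others, ENSORLT00000020170.2 and ENSORLT00000033473.1, had 3 reads each in KO + XBP1(S) and means of 1.14 to 2.12 and 1.01 to 1.48 CPM in the 5 other genotypes. They are named because they complete the group, after their values were seen.

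**Figure D4:**
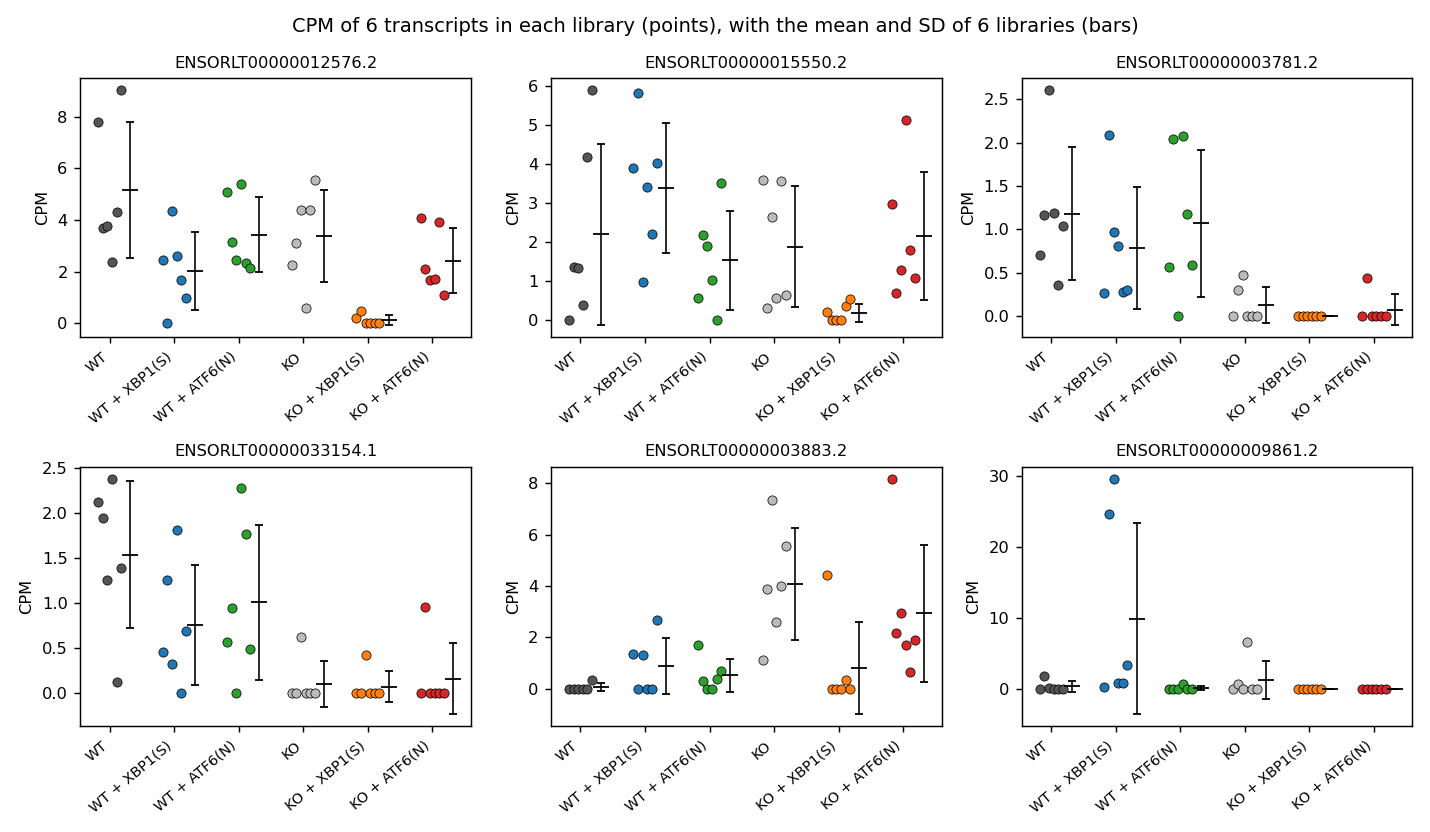
CPM of 6 transcripts in each library (points, 6 per genotype), with the mean and SD beside them. The first 2 are low in every library of KO + XBP1(S) alone, the next 2 in most libraries of all 3 AXER-/- genotypes, the fifth is highest in KO and KO + ATF6(N), and the last is high in 2 WT + XBP1(S) libraries.

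A pair of transcripts followed AXER status more closely than the rule asked. ENSORLT00000003781.2 had reads in 17 of 18 AXER+/+ libraries and in 3 of 18 AXER-/- libraries. Its reads were 2, 6, 29, 3, 3 and 3 in WT, 3, 5, 6, 4, 1 and 3 in WT + XBP1(S), and 2, 13, 0, 10, 6 and 6 in WT + ATF6(N). They were 0, 6, 3, 0, 0 and 0 in KO, 0 in all of KO + XBP1(S), and 0, 5, 0, 0, 0 and 0 in KO + ATF6(N). Mean levels were 0.784 to 1.18 CPM in the AXER+/+ genotypes and 0 to 0.129 CPM in the AXER-/- genotypes.

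ENSORLT00000033154.1 had reads in 16 of 18 AXER+/+ libraries and in 3 of 18 AXER-/- libraries. The sums were 100 reads over AXER+/+ and 16 over AXER-/-, and for ENSORLT00000003781.2 they were 105 and 14. In KO its reads were 0, 0, 4, 0, 0 and 0, in KO + XBP1(S) 0, 0, 1, 0, 0 and 0, and in KO + ATF6(N) 0, 11, 0, 0, 0 and 0. KO replicate 3 and KO + ATF6(N) replicate 2 held reads of both transcripts. Spearman's rho between the 2 over 36 libraries was 0.89. The difference in libraries above 0 between AXER+/+ and AXER-/- was 14 and 13, the 2 highest of all 37495 transcripts, and the next was 10. Both were picked out for this pattern after their values were seen, both were below the filter of the test across transcripts, and no test is given. Whether they come from 1 gene or from the neighbourhood of AXER was not tested. Over all 298 the same difference had a median of 3 libraries (from -8 to 14), against 1 library for the other present transcripts below 2 CPM, and a median of 0 once both XBP1(S) genotypes were set aside. The rule favours a positive median, since 191 of the 298 were lacking in KO + XBP1(S), an AXER-/- genotype. The other transcripts were not chosen that way, so nothing is read from the 3 against 1. By the rule both transcripts count only as lacking in KO + XBP1(S), because KO held 9 and 4 reads and KO + ATF6(N) 5 and 11.

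For AXER+/+ genotypes lacking a transcript, no member was present in all AXER-/- genotypes, and the rule for named transcripts fell to those lacking in 2 of 3. ENSORLT00000011916.2 had 3 reads in WT, all in replicate 5, and 3 in WT + XBP1(S), against 5, 26, 12, 2, 0 and 17 in KO. It was at 4 reads in KO + XBP1(S) and 5 in KO + ATF6(N), and at 35 reads in WT + ATF6(N), so it did not divide by AXER. ENSORLT00000007484.2 was at 0 reads in WT and WT + ATF6(N) and had 8, 0, 7, 7, 7 and 5 reads in KO. WT + XBP1(S), which is AXER+/+, had 14 reads in 2 libraries, while 1 library alone held the 11 reads of KO + XBP1(S) and the 5 reads of KO + ATF6(N), so it did not divide by AXER either.

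Transcripts that were chosen in 1 AXER contrast were then read in the others, whose libraries had no part in the choice. In KO against WT, 14 were lacking in WT and present in KO, and 6 the reverse. Of the 14, 10 had a higher mean CPM in KO + XBP1(S) than in WT + XBP1(S) and 8 in KO + ATF6(N) than in WT + ATF6(N). Over all transcripts present in some genotype, 64.2% were higher and 35.8% lower in the first of these contrasts, and 28.6% were higher and 71.4% lower in the second. In KO against WT 36.3% of them were higher and 63.7% lower, and these shares stand beside the counts that follow. They are not matched for level, since 12697 of the 19857 present transcripts reached 5 CPM or more and most listed ones stayed below 2 CPM. No count is therefore read as above or below them. Of the 6, 3 and 4 were lower again. KO + XBP1(S) lacked 57 transcripts that WT + XBP1(S) held, and 26 of these were lower in KO than in WT and 29 in KO + ATF6(N) than in WT + ATF6(N). In the reverse sense 3 were chosen, and 1 moved the same way in each of the other contrasts. With ATF6(N), 8 were chosen as higher without AXER and 4 as lower. Of the 8, 3 were higher in KO than in WT and 4 in KO + XBP1(S) than in WT + XBP1(S), and of the 4, 3 and 2 were lower. For AXER loss as a whole, 94 of 184 readings had the same direction and 90 the opposite one. These totals pool lists whose share over all present transcripts ran from 28.6% to 71.4%, and no pooled share is given.

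For XBP1(S), 11 transcripts were lacking in WT and present in WT + XBP1(S), and 7 of them were also higher in KO + XBP1(S) than in KO, where 62.8% of all present transcripts were higher and 37.1% lower. The 5 chosen as lower in WT + XBP1(S) all went the other way in KO medaka. Of 46 chosen as lacking in KO + XBP1(S) and present in KO, 22 were lower in WT + XBP1(S) than in WT, and the 1 chosen the other way was not higher there, where 33.2% of all present transcripts were higher and 66.8% lower. For ATF6(N), 10 and 6 were chosen as higher and lower in WT medaka, of which 5 and 1 kept their direction in KO medaka (51.5% and 48.5% of all present transcripts). In KO medaka 6 and 9 were chosen, of which 2 and 7 kept it in WT medaka (60.5% and 39.5%). Over all 3 factors 138 of 278 readings of 186 choices had the same direction, and 132 did with TMM-scaled libraries. Over the 7 contrasts the median log2 ratio of all tested transcripts was -0.212 to 0.165 with total scaling and -0.0215 to 0.00943 with TMM scaling. No share over all present transcripts is given for the pooled total or with TMM scaling, so neither count is set against a background. In 0 of 278 readings was a transcript again lacking in 1 genotype and present in the other. Each list meeting this rule held only 1 to 57 of the 19857 present transcripts. Such a state is rare for any transcript, so nothing is read from the 0. Among 106 readings with a test, 0 were called in the same direction by edgeR and 0 by DESeq2. Depending on the contrast, edgeR called 0% to 0.642% of all tested transcripts, so 0 is near that share. DESeq2 gave no adjusted p for 56 to 67 of the 67 listed transcripts with a test in 4 of the 7 contrasts. At an unadjusted p under 0.05 in edgeR, 4 of the 106 moved the same way and 2 the opposite way. Over all tested transcripts 2.25% to 12.02% had such a p in either direction, depending on the contrast. These shares are not matched for level, and 4 and 2 are small counts. Nothing is therefore read from the 4 against 2, and the transcripts named below are described as single cases.

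**Figure D5:**
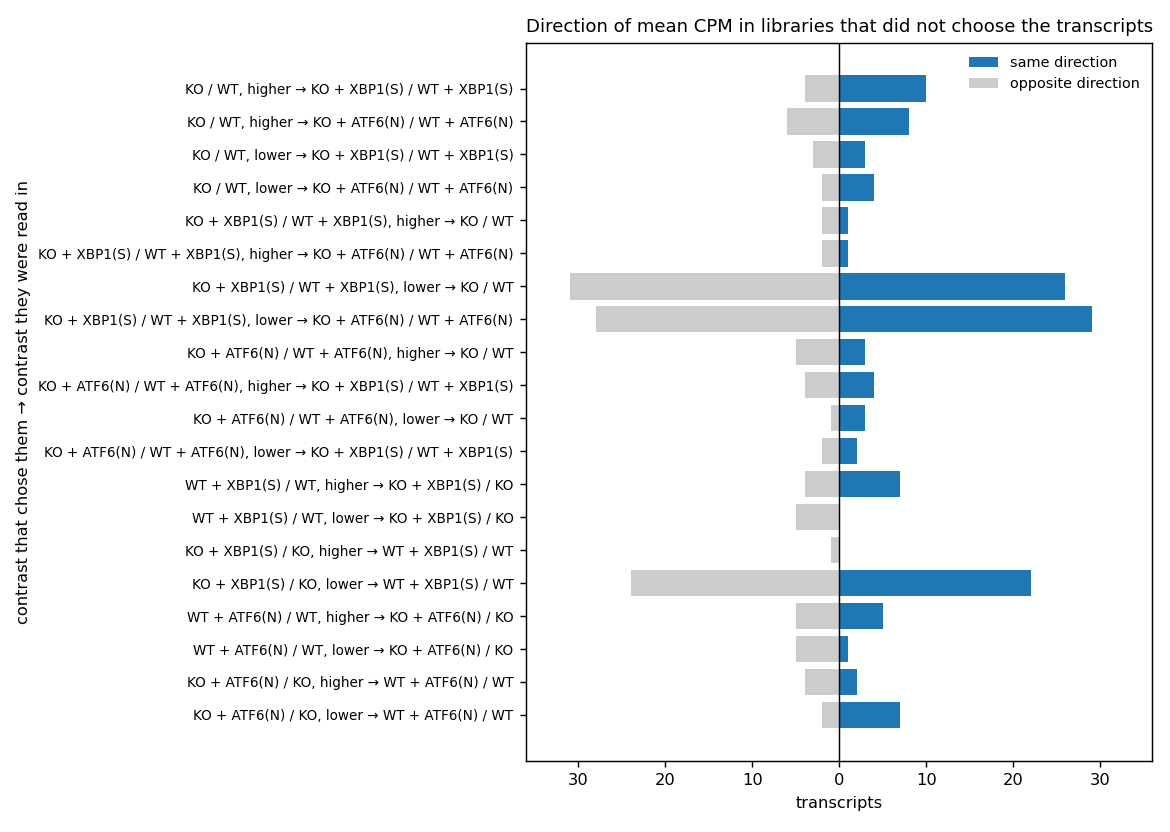
Number of transcripts whose mean CPM moved in the same direction (right, blue) or the opposite direction (left, grey) in a contrast whose libraries did not choose them, for each list and reading. In the 3 longest bars, 26 of 57, 29 of 57 and 22 of 46 transcripts moved in the same direction. Over all present transcripts 63.7%, 71.4% and 66.8% did so in these contrasts. These shares are not matched to the low level of the listed transcripts.

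ENSORLT00000003883.2 had the lowest p of these readings for AXER loss, and it is named after its values were seen. It had 0, 0, 0, 0, 0 and 1 reads in WT and 10, 76, 47, 9, 19 and 17 in KO, the pair of genotypes that chose it. In the libraries that did not, it had 6, 2, 0, 0, 2 and 7 reads in WT + ATF6(N) and 22, 25, 16, 7, 4 and 14 in KO + ATF6(N), or 0.514 ± 0.635 against 2.93 ± 2.67 CPM. The 2 groups overlapped, the log2 fold change was 2.61 (standard error 0.98), and the adjusted p was 0.450 by edgeR (unadjusted 0.0111). With XBP1(S) it had 15, 0, 8, 0, 0 and 27 reads in the AXER+/+ and 21, 0, 0, 0, 1 and 0 in the AXER-/- libraries, and edgeR's log2 ratio was -0.23 with a standard error of 0.95 (adjusted p = 0.962). All but 1 of its KO + XBP1(S) reads were in replicate 1, the deepest library of KO + XBP1(S). ENSORLT00000021862.2, with 0 reads in KO + XBP1(S), was at 1.27 CPM in WT + ATF6(N) and 0.0903 CPM in KO + ATF6(N). That is a log2 difference of -3.35 with a standard error of 1.49 (adjusted p = 0.682 in edgeR). Its WT + ATF6(N) reads were 0, 18, 4, 0, 0 and 38. In KO against WT it moved the other way, from 0.632 to 1.21 CPM (log2 ratio 0.47, standard error 1.30). ENSORLT00000025735.2 moved against its choice, from 0.300 CPM in WT to 1.42 CPM in KO and 1.60 CPM in WT + XBP1(S), after it was chosen as lacking in KO + XBP1(S). These 2 are also named after their values were seen.

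For XBP1(S) the lowest p was that of ENSORLT00000044779.1, also named after its values were seen. It was chosen on 7, 6, 5, 0, 5 and 19 reads in KO and 0, 0, 0, 0, 0 and 1 in KO + XBP1(S). In WT it had 0, 22, 5, 0, 8 and 14 reads and in WT + XBP1(S) 0, 0, 0, 0, 0 and 4, or 1.76 against 0.0656 CPM on average. The log2 fold change in WT medaka was -3.80 (standard error 1.31, adjusted p = 0.345 by edgeR, unadjusted 0.00598). No XBP1(S) library held more than 0.540 CPM of it, so it passed the filter on low counts through genotypes without the allele. That favours a negative ratio, and nothing is read from this value. WT libraries at 0 overlapped those of WT + XBP1(S). ENSORLT00000011769.2, named for the same reason, was at 3.08 CPM in WT, with 11, 9, 17, 13, 31 and 7 reads, and at 0.424 CPM in WT + XBP1(S), where 24 of its 26 reads were in replicate 6 (log2 ratio -2.47, standard error 1.02, adjusted p = 0.550 by edgeR). Its mean was also lower with ATF6(N), at 0.841 CPM in WT + ATF6(N), and at 0.113 CPM in KO + ATF6(N) against 1.23 CPM in KO. The lower level was thus not particular to XBP1(S).

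The 3 transcripts lacking in both XBP1(S) genotypes, ENSORLT00000030576.1, ENSORLT00000014250.2 and ENSORLT00000032033.1, had 0 reads in all 12 of these libraries, and each was present by the rule in 1 other genotype, at 1.07 to 1.26 CPM. Their sums in WT were 8, 17 and 23 reads, each with at least 3 WT libraries at 0. ENSORLT00000030576.1 had only 4.48 reads in KO. ENSORLT00000014250.2 had 6 reads in KO and 5 in KO + ATF6(N), each in 1 library. Both were thus low in genotypes without XBP1(S) too and did not divide by the allele. ENSORLT00000032033.1 had 18 to 40 reads in each genotype without it.

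For the reverse, no transcript was lacking without XBP1(S) and present in both XBP1(S) genotypes. The named transcripts were lacking in 2 of 4. ENSORLT00000006442.2 had 21, 4, 0, 2, 7 and 13 reads in WT + XBP1(S) but 4 in KO + XBP1(S), all in replicate 5. ENSORLT00000014626.2 was lacking in both ATF6(N) genotypes, with 3 reads in replicate 5 of each, and had 2, 5, 0, 8, 11 and 4 reads in WT + XBP1(S). It had 17 reads in WT, 20 in KO and 10 in KO + XBP1(S), each in 2 or 3 libraries. ENSORLT00000006937.2, also lacking in both ATF6(N) genotypes, had 5, 5, 3, 0, 9 and 9 reads in KO and 15 reads each in WT and KO + XBP1(S). Both ATF6(N) genotypes held 18 transcripts that some genotype without the allele lacked. The first of these was again ENSORLT00000012576.2. The second, ENSORLT00000023484.2, was at 3.26 ± 3.92 CPM in WT + ATF6(N) and 2.18 ± 2.18 CPM in KO + ATF6(N). It was lacking in KO + XBP1(S) with 3 reads in 1 library, but WT + XBP1(S), where 2 libraries were at 0, held the highest mean, 5.42 ± 6.06 CPM, so it did not divide by ATF6(N).

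The transcript with the highest level of the list was ENSORLT00000009861.2, named after its values were seen. It had 2, 59, 183, 4, 3 and 34 reads in WT + XBP1(S), or 9.90 ± 13.5 CPM, and replicates 2 and 3 made up most of that mean with 24.6 and 29.6 CPM. It had 3 reads in WT + ATF6(N) and none in KO + XBP1(S) or KO + ATF6(N). WT (0, 9, 1, 0, 0 and 0 reads) and KO (0, 14, 0, 23, 0 and 0 reads) held it in 2 libraries each. The SD in WT + XBP1(S) was thus above the mean.

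Listed transcripts mostly varied apart from one another. Over the 44253 pairs, Spearman's rho of log2(CPM + 1) across the 36 libraries had a median of 0.065, and 95.3% of pairs lay between -0.4 and 0.4. Only 7 pairs, formed by 11 transcripts, exceeded 0.8. The highest was ENSORLT00000012342.2 with ENSORLT00000040555.1 (rho = 0.95), whose reads in WT + ATF6(N) were 0, 7, 4, 4, 7 and 41 and 0, 5, 4, 7, 7 and 35. All estimates of the 11 were whole numbers. These correlations rest on shared libraries, depth and many zeros and carry no p. For ENSORLT00000012576.2 the most similar transcript among those tested or listed was ENSORLT00000044842.1 (rho = 0.62) and the most opposite ENSORLT00000003960.2 (rho = -0.71). For ENSORLT00000015550.2 they were ENSORLT00000012306.2 (rho = 0.69) and ENSORLT00000040833.1 (rho = -0.74). For the other transcripts named by the rule the highest rho was 0.53 to 0.70.

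Few of the listed transcripts could be tested. The filter on low counts kept 67 of the 298 (22.5%) among 18076 tested transcripts, so the 231 others have no test, and one that passed only through the genotype where it is high had to differ. A call means an adjusted p under 0.05 (Benjamini-Hochberg over all tested) and a fold above 1.5 in edgeR. The calls below use contrasts on which the list was chosen, so nothing is read from them. In KO against WT 1 of the 67 was called, where 0.642% of all tested transcripts were. With XBP1(S), AXER loss called 1 (0.183% of all), and with ATF6(N) 0 (0.603% of all). XBP1(S) called 0 in WT medaka (0.597% of all) and 1 in KO medaka (0.177% of all). ATF6(N) called 0 in WT medaka (0.0111% of all) and 0 in KO medaka (0% of all). The called transcripts were ENSORLT00000003883.2 in KO against WT and ENSORLT00000012576.2 in both contrasts of KO + XBP1(S). DESeq2 called 0 of the 67 in KO against WT, where it gave no adjusted p for any of the 67 and so could call none. It called 4 where AXER was lost with XBP1(S), with no adjusted p for 56 of the 67, and 3 where KO medaka gained XBP1(S). In the 4 contrasts with no call by edgeR, 7 to 17 of the 67 (10.4% to 25.4%) had an unadjusted p under 0.05, against 2.25% to 7.17% of all tested transcripts, and DESeq2 called 0, although it gave no adjusted p for 67 of them in AXER loss with ATF6(N) and 64 in XBP1(S) in WT medaka.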

How the data were processed

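Hearts of 6 genotypes at 5 dpf were sequenced as 36 libraries by the Lasy-Seq protocol. The authors trimmed reads with fastp 0.21.0 and used BWA 0.7.17-r1188 and Salmon, per the submitters' processing notes, and deposited estimated counts for 37495 transcripts, of which 1.88% were not whole (tolerance 1e-06). The sources name a mouse reference (GRCm38), whereas the identifiers are medaka ones, and differ on the strain and the RNA input. The depth was 1850805 to 19619140 reads per library. Libraries of 1 genotype are numbered in the order of their columns. No 2 libraries of a genotype agreed within sampling noise (lowest chi-square 6.23 per transcript).

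The list and the levels use the deposited estimated counts, scaled to each library's total (CPM). For tests, counts were rounded, filtered with filterByExpr, scaled by TMM and fitted with edgeR 4.0.16 (R 4.3.3) with 1 mean per genotype over 36 libraries. A transcript was called at a fold above 1.5 with p under 0.05 after Benjamini-Hochberg adjustment. Alternatives were DESeq2 1.42.0, its size factors, no filter, other limits of the list, leaving out each library, and reads drawn at random without replacement to the lowest total (10 draws). The fit was also run on simulated data in which only transcripts above the level of most listed ones were changed. That run therefore does not show how the fit performs for this list. Members and lists were chosen with earlier results of these data known. Per factor, up to 2 transcripts lacking in 1 state and present in every genotype of the other were named, by most genotypes lacking and then level. Where none met this, those lacking in most genotypes of 1 state and in none of the other were named. Markers and genotype-defining genes could not be looked up.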

Additional observations from a re-analysis of the deposited data

Results flagged for a closer look

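A library stood apart from the other 5 of its genotype in 20 of 60 groups of 6 values tested (9 named transcripts and the number of listed transcripts at 0, in each genotype, groups wholly at 0 included). Chance flags about 1 in 20 groups of normally distributed values, a rate that does not hold for counts that are mostly 0. A group with 5 libraries at 0 and 1 above 0 is always flagged, which accounts for 9 of the 20, and the rule of the list itself favours such groups. The number of flags is therefore no measure of how unusual these libraries are. In 19 of them 1 library was far above the rest. ENSORLT00000014626.2 was flagged in 5 genotypes, with a highest library of 2.77 CPM in WT, 0.588 in WT + ATF6(N), 4.24 in KO, 3.70 in KO + XBP1(S) and 0.492 in KO + ATF6(N). ENSORLT00000023484.2 was flagged in 5, at 4.80 CPM in WT, 16.5 in WT + XBP1(S), 4.82 in KO, 1.15 in KO + XBP1(S) and 6.35 in KO + ATF6(N). ENSORLT00000006442.2 was flagged in 4, at 0.240 CPM in WT, 0.0975 in WT + ATF6(N), 1.96 in KO and 1.41 in KO + XBP1(S). ENSORLT00000011916.2 was flagged in 3, at 0.360 CPM in WT, 0.324 in WT + XBP1(S) and 5.54 in KO. ENSORLT00000007484.2 was flagged in 2, at 4.23 CPM in KO + XBP1(S) and 0.436 in KO + ATF6(N). The remaining flag was low: WT + ATF6(N) replicate 6 had 65 listed transcripts at 0, and it is the deepest library of that genotype.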

How the results depend on the processing

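The number of listed transcripts followed each limit of the rule. From 298 it went to 85 with lacking at 0 reads only, 1338 with lacking up to 10 reads, 793 with present from 0.5 CPM, 42 from 2 CPM, 106 with reads in all 6 libraries, and 985 after thinning. TMM-normalized library sizes gave 288, whole estimates alone 289 and an equal CPM limit, chosen after seeing the data, 435. Leaving out 1 library by construction loosens the limit for lacking, while the mean CPM needed for present can rise or fall. It gave 314 to 495, and the highest, above 1.5 times, were without KO + XBP1(S) replicates 1 (495), 4 (472) and 5 (457). Without WT + ATF6(N) replicate 3, 278 of the 298 stayed on the list. Transcripts again lacking and present in libraries that did not choose them went from 0 to 22 of 1768 readings with lacking up to 10 reads and stayed 0 after thinning. With lacking up to 10 reads each list held 24 to 318 of the 19857 present transcripts. No share over all present transcripts is given for the 22. In contrasts with calls over all transcripts, DESeq2 gave 130 in place of 33 for AXER loss with XBP1(S) and 93 in place of 32 for XBP1(S) in KO, and no filter gave 19 for the latter. Leaving out 1 library gave 91 to 117 for KO against WT (116 in all), 24 to 45 for AXER loss with XBP1(S), 90 to 109 with ATF6(N), 97 to 112 for XBP1(S) in WT, 16 to 37 for XBP1(S) in KO, 1 to 2 for ATF6(N) in WT and 0 for ATF6(N) in KO. The counts for XBP1(S) in KO were 20 without KO replicate 1 or KO + XBP1(S) replicate 5 and 16 without KO replicate 4. The count for ATF6(N) in WT was 1 without WT replicate 5, WT replicate 6 or WT + ATF6(N) replicate 5. The causes were not tested. No paired analysis was possible because the libraries carry no number that pairs them across genotypes. The limit of 3 reads, a chosen one, stands for 0.0649 to 0.181 CPM of the pooled total depending on the genotype.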
